A study of Mus musculus with 16 samples.

Results

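Gene models with distant alternative first exons are genes of the merged CaptureSeq assembly whose spliced transcripts begin at 2 or more places. Transcripts with at least 2 exons were grouped by the position of their 5′ end, strand-aware, and ends within 500 nt were joined into a start group. First exons of different start groups of a member do not overlap. Of 59205 gene models, 27520 had a multi-exon transcript and 10663 met the rule on structure. The shares described here are those of the 3634 gene models, with 11875 start groups, whose summed value was at least 100 in each of the 8 splice junction CaptureSeq libraries. Just inside that limit was Trim65 with a smallest sum of 100.04, and just outside it was Rusc2 with 99.60. The closest pair of start groups lay 501 nt apart. The measure is the share of a start group, which is the sum of the values of its transcripts in percent of the sum of the gene model in the same library.

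CaptureSeq hybridizes libraries to oligonucleotide probes before sequencing. One probe design targeted annotated splice junctions and the other long noncoding RNA (lncRNA) loci, and each was used once on every tissue of adult C57BL/6J mice, which gives 16 libraries of 8 tissues. Samples of the brain class are whole brain, olfactory bulb, cortex and cerebellum. Those of the nonbrain class are liver, kidney, heart and a sample labelled testis. The labels name no treatment, and all samples share the strain. The 4 brain tissues were compared with the 4 nonbrain tissues, with the tissue as the unit. The question this comparison addresses is whether a gene model begins at the same place in brain and in other organs. Whole brain contains the other 3 tissues of its class, so the brain samples are not independent, and the number of mice is not given in the sources used here. The p-values of this comparison describe the spread between tissues and not between mice. Brain RNA was extracted with TRIzol and nonbrain RNA, pooled from 2 pieces of an organ, with RNeasy columns. Each class had its own hybridization pools of 4 libraries and its own number of PCR cycles after capture. These differences and the class of tissue cannot be told apart.

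The splice junction libraries held 14309264 (heart) to 43889325 fragments (liver). Members had a median of 579 fragments in heart, 926 in liver and 2607 in whole brain, so shares in heart are the least precise. Markers of neurons, oligodendrocytes and astrocytes were highest in a brain library, markers of kidney in kidney and markers of liver in liver. Of 4 heart muscle markers 3 were highest in heart, and the other, Myh6, was listed at 0 in heart, which can be a failed estimate. The tissue labelled testis went against its label: none of 6 germ cell markers was highest there (Ddx4 with 30 fragments, Prm1 with 1, Tnp1 and Acrv1 with 0), whereas 6 of 7 keratinocyte markers were, among them Krt14 with 96634 fragments. Of 3 markers of blood and vessels 2 were highest in heart and 1 in the tissue labelled testis. It is called by its label throughout. Levels of organ markers also appeared at a low level in the other nonbrain libraries, which shared a hybridization pool. The 4 kidney markers Umod, Slc12a1, Slc34a1 and Nphs1 stood at 0.797 to 2.63% of their kidney level in heart, liver and the tissue labelled testis. In the brain libraries the first 3 stood at no more than 0.0257%, whereas Nphs1, the marker with the lowest kidney level, reached 6.95%. Krt14 stood at 1.69 to 4.18% of its highest level in the other nonbrain libraries. Where a library holds only a few percent of the highest level of a gene in its pool, the part of the other libraries in its share was not tested. In 3065 members (84.3%) the lowest level was at least 10% of the highest within the brain and within the nonbrain libraries, and where a member named below falls short of this, the ratio is given. In bulk tissue, fewer cells of a type and less RNA per cell cannot be told apart, and a share is an average over all cell types present.

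Many mammalian genes have more than 1 promoter. Each promoter has its own first exon, which is spliced onto exons that all transcripts of the gene share. A promoter change can leave the protein as it is, when the first exons are untranslated, or give it another amino terminus, when the start codon lies in the first exon. Cytoskeletal linkers, phosphodiesterases, ion channels and transcription factors are textbook families with such promoters. Promoters rich in CpG dinucleotides are active in most tissues, and CpG-poor promoters are more often restricted to few tissues.

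The genomic sequence before 5 pairs of starts is shown first. In each pair the share of at least 1 start differed between tissues, and the windows differ in CpG content. For Sgk1 this was start 1, while start 6 was not called and led in all 8 tissues. The pairs were chosen after their shares were seen. Each line gives the 120 bases before the RefSeq start nearest to the start group (GRCm38.p6), 5′ to 3′, with CG dinucleotides in capitals. The motif TATAAA, searched on the transcribed strand from 45 to 16 bases before the start, is also in capitals, and 1 of the windows, that of Gjb1 start 3, holds it. The same letters at the end of the window of Sgk1 start 6 lie closer to the start than this and were not counted. Starts are numbered from the 5′ end of the gene model. The sequences are from RefSeq.
Gjb1 start 2, chrX:101377115-101377234 (+ strand): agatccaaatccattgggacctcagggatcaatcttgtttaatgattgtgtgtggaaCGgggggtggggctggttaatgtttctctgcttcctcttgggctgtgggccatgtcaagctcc
Gjb1 start 3, chrX:101383612-101383731 (+ strand): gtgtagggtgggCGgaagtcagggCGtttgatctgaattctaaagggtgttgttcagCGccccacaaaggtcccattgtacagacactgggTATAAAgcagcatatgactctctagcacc
Sgk1 start 1, chr10:21882064-21882183 (+ strand): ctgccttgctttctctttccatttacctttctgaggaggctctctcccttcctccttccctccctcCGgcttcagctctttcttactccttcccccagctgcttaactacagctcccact
Sgk1 start 6, chr10:21994546-21994665 (+ strand): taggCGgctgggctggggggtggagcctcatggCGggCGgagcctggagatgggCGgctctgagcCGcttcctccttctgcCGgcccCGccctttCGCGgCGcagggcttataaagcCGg
Slc25a25 start 1, chr2:32451471-32451590 (- strand): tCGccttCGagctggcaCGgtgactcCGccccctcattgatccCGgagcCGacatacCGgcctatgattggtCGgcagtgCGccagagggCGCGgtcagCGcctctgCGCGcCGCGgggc
Slc25a25 start 3, chr2:32424067-32424186 (- strand): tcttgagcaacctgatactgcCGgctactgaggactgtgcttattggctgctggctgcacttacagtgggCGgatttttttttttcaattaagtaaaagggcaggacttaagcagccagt
Kdm4c start 1, chr4:74242377-74242496 (+ strand): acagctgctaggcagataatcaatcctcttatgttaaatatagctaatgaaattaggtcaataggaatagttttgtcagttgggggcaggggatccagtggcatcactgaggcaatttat
Kdm4c start 2, chr4:74251759-74251878 (+ strand): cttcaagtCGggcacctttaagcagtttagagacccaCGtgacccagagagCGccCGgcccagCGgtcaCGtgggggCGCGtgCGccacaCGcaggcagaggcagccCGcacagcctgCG
Ikbkg start 2, chrX:74424492-74424611 (+ strand): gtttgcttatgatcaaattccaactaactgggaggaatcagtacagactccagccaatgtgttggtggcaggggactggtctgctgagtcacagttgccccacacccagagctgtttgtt
Ikbkg start 3, chrX:74429561-74429680 (+ strand): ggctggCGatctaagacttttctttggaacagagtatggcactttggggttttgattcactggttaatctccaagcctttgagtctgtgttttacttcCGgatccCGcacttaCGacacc
In each pair 1 window had more CG dinucleotides than the other. The observed over expected CpG ratio of the 300 nt around the start (250 before it and 50 after it) was 0.10 at Gjb1 start 2 and 0.57 at start 3, 0.21 at Sgk1 start 1 and 0.77 at start 6, 0.30 at Slc25a25 start 3 and 0.86 at start 1, 0.00 at Kdm4c start 1 and 0.89 at start 2, and 0.00 at Ikbkg start 2 and 0.57 at start 3. The shares of these starts, apart from Ikbkg start 3, are given in whole or in part with the genes below.

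A member had a median of 3 start groups and at most 15, and 1501 members (41.3%) had 2. Neighbouring start groups lay a median of 10951 nt apart and the outermost starts a median of 26637 nt, and in 1179 members the outermost starts were more than 50 kb apart. Of the start groups, 9280 (78.1%) lay within 100 nt of a transcript start of GENCODE M21. In 3143 members all start groups overlapped exons of the same single GENCODE gene. The other 491 members joined several genes or had a start group outside the gene. The same start group led in all 8 tissues in 2923 members (80.4%), 2 start groups led in different tissues in 620 and 3 or more in 91. In 92 members 1 start group led in all 4 brain tissues and another in all 4 nonbrain tissues, and 61 of these had levels within 10-fold in each pool.

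Shares of 5383 start groups in 2281 gene models that reached 10% in at least 1 tissue and were at or below 90% in at least 1 tissue were compared between brain and nonbrain tissues with limma on the log2 odds of the share. At a Benjamini-Hochberg adjusted p under 0.05, 1342 start groups (24.9%) differed, 673 with a higher and 669 with a lower share in brain, in 750 gene models (32.9% of those tested). These percentages are the background against which single genes and lists are read. Of the 1342, 1018 lay in gene models of 1 GENCODE gene, and a fit of such gene models alone called 1019 of 4369 start groups (23.3%). The other calls lay in gene models that join several genes or have a start group outside the gene. In these a share need not be a choice between starts of 1 gene. The shares of 1249 of the called start groups did not overlap between the brain and nonbrain tissues. Among all 5383 tested start groups 1815 (33.7%) had no overlap. Calling favours start groups without overlap, so the first count is no separate support. The median absolute difference of mean shares was 18.9 points among called start groups, 631 differed by at least 20 points and 136 by at least 50 points. Of the last, 81 were in gene models with levels within 10-fold in each pool. A fit of those gene models alone called 1031 of 4347 start groups, an alternative chosen after the data were seen. Without cortex, 862 start groups were called. With 4 tissues against 4, the smallest p of a two-sided exact permutation test of 1 start group is 0.0286, which each start group without overlap reaches. Where a start holds nearly none or nearly all of its gene model, the log2 odds difference depends on the gene model sum and on the 1 added to each value. It is then no measure of the size of a share change, for which the shares are given.

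**Figure D1:**
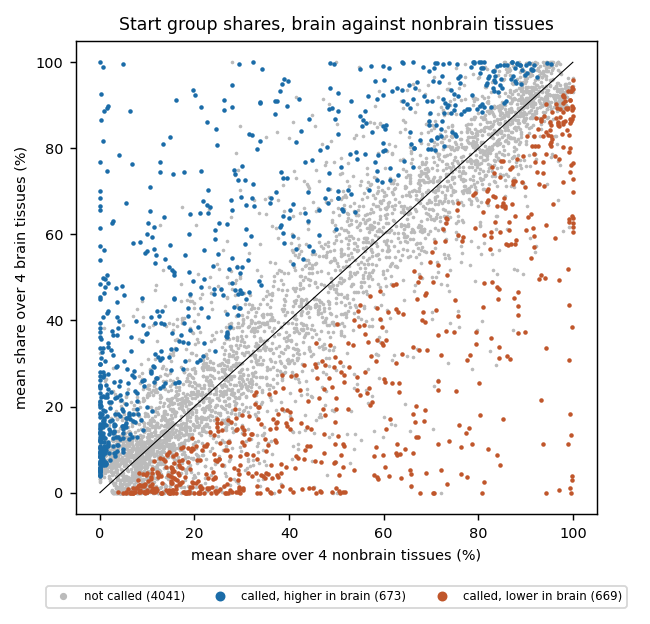
Mean share of each of the 5383 tested start groups over the 4 brain tissues (y axis, percent) against the 4 nonbrain tissues (x axis, percent), splice junction CaptureSeq. Blue points are the 673 start groups called higher in brain, orange points the 669 called lower and grey points those not called. Called points lie along the full length of both axes, so starts that hold nearly the whole gene model in 1 class and nearly none in the other were found in both directions. The shares of a gene model divide 1 sum, so a rise at 1 start goes with a fall at others.

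Between 2 brain tissues the shares of the tested start groups differed by a mean of 6.57 points (5.81 to 7.41, 6 pairs), between 2 nonbrain tissues by 9.74 points (8.30 to 11.4, 6 pairs) and between a brain and a nonbrain tissue by 14.1 points (13.5 to 15.4, 16 pairs). Each of the 16 mixed pairs differed more than each of the 12 pairs within a class. Whole brain and cortex were the most alike with 5.81 points and cerebellum and liver the least with 15.4 points.

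**Figure D2:**
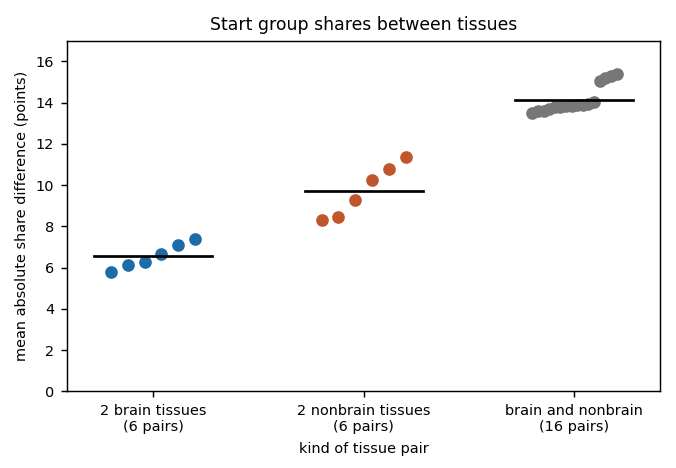
Mean absolute difference of start group shares (y axis, percentage points, 5383 start groups) for the 28 pairs of tissues, by kind of pair. Each point is 1 pair and the line is the mean of the kind. Pairs of brain tissues lie between 5.81 and 7.41 points, pairs of nonbrain tissues between 8.30 and 11.4 and mixed pairs between 13.5 and 15.4.

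Shares differed more between the capture designs than between tissues. Over the 2983 tested start groups whose gene model summed to at least 20 in each lncRNA library, the shares of the same tissue differed between the designs by a mean of 32.0 to 34.1 points, against 11.4 points between tissues within the splice junction design. Members had a median of 12 (heart) to 64 fragments (the tissue labelled testis) in the lncRNA libraries. The sums are normalized values, and 1 fragment was worth 1.14 in the lncRNA library labelled testis and 4.77 in that of heart. A sum of 20 thus stands for few fragments, fewest in heart. A share is therefore a share of the captured fragments of 1 design, and the comparisons here are between tissues within the splice junction design. Of the called start groups, 745 could be measured in the lncRNA libraries, and the difference had the same sign in 520 of them (69.8%), against 57.0% of 2238 start groups that were not called. At a sum of at least 100 in each of them, the lncRNA libraries alone called 46 of 1332 start groups. In a fit of all 16 libraries with the capture design as a covariate, the tissues differed in 117 of 2983 start groups (3.92%; limma, adjusted p under 0.05) in 91 gene models, and 62 of these were also called between brain and nonbrain tissues. The count of the tissue term was 51 without liver, 56 without kidney, 66 without the tissue labelled testis and 69 without cerebellum.

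The 30 start groups with the largest differences of mean share between brain and nonbrain tissues without overlap, 15 in each direction and 1 per gene model of a single GENCODE gene, included enzymes of cyclic nucleotide and lipid signalling (Pde1a, Pde4b, Pik3cd), regulators of small GTPases (Rap1gap, Arhgef3), carriers and glycosyltransferases (Slc25a25, Slc39a11, Gcnt1, Galnt10) and transcription regulators (Grhl1, Bcorl1). They are described by role, together with members of gene lists.

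**Figure D3:**
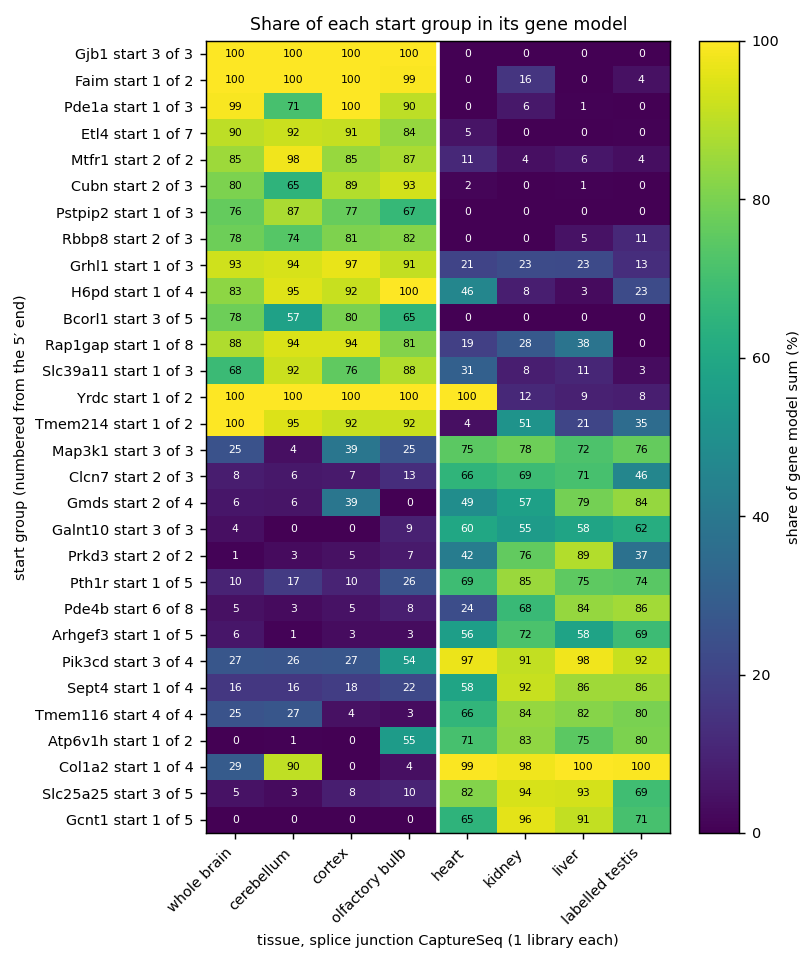
Share of the gene model sum (percent, colour and number) of the 30 start groups with the largest differences between brain and nonbrain tissues (rows, ordered by the difference of mean shares) in each of the 8 splice junction libraries (columns, 1 library each). The upper 15 rows are higher in the 4 brain tissues and the lower 15 in the 4 nonbrain tissues. Single tissues depart from their class, such as olfactory bulb for Atp6v1h, cerebellum for Col1a2 and heart for Yrdc.

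Junction and receptor proteins are given first. Gjb1 encodes a connexin, a subunit of the gap junctions of hepatocytes and of myelinating glia. Its start 3 (chromosome X, position 101383736), just upstream of the coding exon, held 100.0% in whole brain, 100.0% in cerebellum, 100.0% in cortex and 100.0% in olfactory bulb, against 0.0% in heart, 0.0% in kidney, 0.14% in liver and 0.0% in the tissue labelled testis. Start 2 (101377273), 6463 nt upstream, held 0.0% in brain and 99.0 to 100.0% in nonbrain tissues. The choice was thus close to complete in each library (log2 odds difference 16.62 ± 0.68 (SE), limma adjusted p = 1.8e-05), between 2 windows printed above that are both CpG-poor and of which that of start 3 holds TATAAA. GENCODE gives both starts the same start codon, in a later exon. The level in heart (199 fragments), kidney (1194) and the tissue labelled testis (229) was low beside that of liver (20846), and the lowest nonbrain level was 0.67% of the highest, while liver held most of the nonbrain fragments. Pth1r, the receptor of parathyroid hormone, began at start 1 (chromosome 9, position 110750076) with 9.89 to 25.6% in brain and 69.1 to 85.0% in nonbrain tissues (log2 odds difference -4.18 ± 0.46 (SE), limma adjusted p = 0.0011). Its lowest nonbrain level was 1.67% of the highest, with 33363 fragments in kidney. Cubn, the cubilin receptor of kidney tubules, showed 65.1 to 93.1% at start 2 in brain and 0.0 to 1.52% in nonbrain tissues, where its lowest level was 0.76% of that of kidney, while the lncRNA libraries gave 99.3 to 99.9% in brain and 93.6 to 100.0% in nonbrain tissues for the same start.

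Among signalling enzymes, Pde4b degrades cyclic AMP and had 8 start groups. The downstream start 6 (chromosome 4, position 102570095) held 4.52% in whole brain, 2.94% in cerebellum, 4.85% in cortex and 8.35% in olfactory bulb, against 23.8% in heart, 67.6% in kidney, 84.3% in liver and 86.2% in the tissue labelled testis. Brain tissues thus stayed below the lowest nonbrain tissue, heart (log2 odds difference -5.40 ± 0.96 (SE), limma adjusted p = 0.0074), whereas start 1 (102087543), far upstream, held 8.77 to 76.9% in brain and 0.0 to 6.00% in nonbrain tissues (log2 odds difference 7.53 ± 1.78 (SE), limma adjusted p = 0.022). GENCODE places different start codons behind these starts. The call for start 1 was lost without whole brain, cerebellum, cortex or the tissue labelled testis (limma adjusted p = 0.051 to 0.059), and its brain shares ranged from olfactory bulb at 8.77% to cerebellum at 76.9%. Pde1a, a calcium and calmodulin dependent phosphodiesterase, began at start 1 (chromosome 2, position 80129458) with 99.0% in whole brain, 71.1% in cerebellum, 99.7% in cortex and 89.9% in olfactory bulb, and with 0.0 to 6.34% in nonbrain tissues, which began at start 2 with 74.3 to 91.0% (log2 odds difference 11.35 ± 1.68 (SE), limma adjusted p = 0.0037). The call of start 2 was lost with limma diffSplice (adjusted p = 0.16). Levels of Pde1a spanned more than 10-fold in both pools, with a lowest level of 1.86% of the highest among brain and 4.37% among nonbrain libraries. Pik3cd, the delta catalytic subunit of phosphoinositide kinase, began at start 3 (chromosome 4, position 149698605) with 97.0% in heart, 90.8% in kidney, 98.0% in liver and 91.7% in the tissue labelled testis, and with 26.8% in whole brain, 26.3% in cerebellum, 26.8% in cortex and 54.3% in olfactory bulb (log2 odds difference -5.22 ± 0.63 (SE), limma adjusted p = 0.0017). Olfactory bulb stood between the 3 other brain tissues and the nonbrain tissues. Both main starts lead to the same start codon.

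Among regulators of small GTPases, Arhgef3, a guanine nucleotide exchange factor, held 56.2% in heart, 71.8% in kidney, 58.2% in liver and 68.7% in the tissue labelled testis at start 1 (chromosome 14, position 27114795), against 5.91% in whole brain, 1.01% in cerebellum, 3.18% in cortex and 3.36% in olfactory bulb. Brain tissues used start 4 (27336038), with 71.4% in whole brain, 61.2% in cerebellum, 71.7% in cortex and 52.3% in olfactory bulb, against 6.02 to 25.7% in nonbrain tissues. The mean share of start 1 was 3.37% ± 2.01 in brain and 63.7% ± 7.69 in nonbrain tissues (SD, n = 4 each) (log2 odds difference -5.90 ± 0.56 (SE), limma adjusted p = 0.00061), and that of start 4 was 64.2% ± 9.29 in brain and 13.6% ± 8.43 in nonbrain tissues (SD, n = 4 each) (log2 odds difference 3.71 ± 0.55 (SE), limma adjusted p = 0.0037). Start 5 was highest in olfactory bulb at 39.3%, above 21.3% in cortex, and the lncRNA libraries also had olfactory bulb highest. Rap1gap inactivates Rap. Start 1 (chromosome 4, position 137664726) held 81.4 to 94.3% in brain and 19.1% in heart, 27.7% in kidney, 38.4% in liver and 0.0% in the tissue labelled testis (log2 odds difference 6.53 ± 1.77 (SE), limma adjusted p = 0.036), and start 4 held 99.2% in the tissue labelled testis. The lowest nonbrain level was 6.69% of the highest, and the call was lost without any 1 of the 4 brain tissues or kidney (limma adjusted p = 0.051 to 0.089). Rapgef4, an exchange factor of Rap that cyclic AMP activates, began at start 1 (chromosome 2, position 71981259) with 69.9 to 82.9% in brain and 50.8% in heart, but with 0.0% in kidney, 0.054% in liver and 0.0% in the tissue labelled testis. Kidney used start 2 (72054985) with 70.8%, and the next highest share of that start was 31.1% in the tissue labelled testis. The start 1 difference passed the test with all tissues (log2 odds difference 8.13 ± 2.12 (SE), limma adjusted p = 0.031) and not without any 1 of the tissues other than heart (limma adjusted p = 0.061 to 0.075). The lowest nonbrain level was 0.98% of the highest.

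Kinases and a scaffold of kinase cascades were next. Sgk1, the serum and glucocorticoid regulated kinase, held 21.7% in whole brain, 40.3% in cerebellum, 15.0% in cortex and 22.1% in olfactory bulb at its most upstream start (chromosome 10, position 21882184), and 0.19% in heart, 0.12% in kidney, 0.0% in liver and 0.0% in the tissue labelled testis. Every brain tissue used this distal start and no nonbrain tissue did beyond 0.19% (log2 odds difference 8.43 ± 0.65 (SE), limma adjusted p = 0.00029). In the lncRNA libraries the start held 41.1% in whole brain, more in cerebellum, and 0.0% in nonbrain tissues. Start 6 (21994666) was the leading start in all 8 tissues with 55.2 to 81.0% in brain and 77.0 to 94.4% in nonbrain tissues. Distal and main start have different start codons, each in its first exon. Mapk8ip3, a scaffold of the JNK cascade and of kinesin transport, began at start 1 (chromosome 17, position 24936977) with 90.9% in whole brain, 90.1% in cerebellum, 91.5% in cortex and 91.0% in olfactory bulb, and 72.3% in heart, 39.3% in kidney, 49.1% in liver and 51.5% in the tissue labelled testis. The internal start 4 held 6.88 to 7.4% in brain and 27.7 to 60.7% in nonbrain tissues. Brain values lay between 90.1 and 91.5% (log2 odds difference 3.12 ± 0.42 (SE), limma adjusted p = 0.0026). Map3k1, a kinase at the head of a MAP kinase cascade, held 66.9% ± 11.6 in brain and 22.6% ± 4.10 in nonbrain tissues (SD, n = 4 each) at start 2 (chromosome 13, position 111808993; log2 odds difference 2.88 ± 0.45 (SE), limma adjusted p = 0.0047). With limma diffSplice, which tests each start against the others of its gene model, the call was lost (adjusted p = 0.73). Start 3, less than 1 kb downstream and also not called by diffSplice (limma, adjusted p = 0.14), held 4.25 to 39.4% in brain and 72.2 to 77.8% in nonbrain tissues, and its lowest level among brain libraries was 8.38% of the highest. Prkd3, a protein kinase D, began at start 2 with 0.80 to 7.16% in brain and 42.1% in heart, 76.1% in kidney, 88.6% in liver and 37.4% in the tissue labelled testis (log2 odds difference -5.80 ± 1.02 (SE), limma adjusted p = 0.0072), with a lowest nonbrain level of 9.33% of the highest.

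Among cytoskeletal linkers, Macf1 joins microtubules to actin. Its most upstream start (chromosome 4, position 123684360) held 66.9% in whole brain, 75.3% in cerebellum, 65.0% in cortex and 76.8% in olfactory bulb, and 7.50% in heart, 10.0% in kidney, 19.7% in liver and 4.81% in the tissue labelled testis (log2 odds difference 4.59 ± 0.50 (SE), limma adjusted p = 0.001). Nonbrain tissues did not share 1 alternative, since kidney, liver and the tissue labelled testis used start 2 with 81.6%, 58.2% and 76.2%, while heart used start 4 (123564694) with 79.0%, against at most 13.5% elsewhere. At the most upstream start of Macf1 the lncRNA libraries gave a log2 odds difference of 6.47 that was not called (limma adjusted p = 0.14). Plec encodes plectin, a linker of intermediate filaments, and had 12 start groups. Start 3 (chromosome 15, position 76232570) held 38.0% in whole brain, 37.8% in cerebellum, 47.2% in cortex and 29.6% in olfactory bulb, and 0.89% in heart, 1.24% in kidney, 0.69% in liver and 12.3% in the tissue labelled testis (log2 odds difference 5.05 ± 0.93 (SE), limma adjusted p = 0.009). Kidney was highest at start 1 with 63.0%, and heart and liver at start 5 with 49.1% and 43.7%. Etl4, a gene needed for intervertebral disc development, began at start 1 (chromosome 2, position 19909780) with 90.2% in whole brain, 91.9% in cerebellum, 91.0% in cortex and 84.4% in olfactory bulb, and with 5.26% in heart, 0.0% in kidney, 0.0% in liver and 0.45% in the tissue labelled testis (log2 odds difference 10.34 ± 1.00 (SE), limma adjusted p = 0.00067). The lncRNA libraries gave 83.8 to 94.1% in brain and 0.0% in nonbrain tissues, from 8 to 129 fragments, and the tissue term over both designs passed its test (limma, adjusted p = 0.0041). Nonbrain tissues began at start 5 (20547980), with 41.4 to 52.0%, and at start 6. Sept4, a septin, held 16.1 to 21.6% in brain and 58.2% in heart, 91.6% in kidney, 85.8% in liver and 85.7% in the tissue labelled testis at start 1 (chromosome 11, position 87578401), and 66.9 to 80.6% in brain and 4.88 to 38.2% in nonbrain tissues at start 3 (log2 odds difference 4.41 ± 0.74 (SE), limma adjusted p = 0.0058). The lncRNA libraries gave 5.80 to 29.3% in brain and 8.12 to 17.7% in nonbrain tissues for start 1, with overlapping ranges and a log2 odds difference of the other sign (0.73). Ldb3, a Z disc protein of striated muscle, held 18.9 to 55.8% in brain and 78.5 to 88.2% in nonbrain tissues at start 2 (log2 odds difference -3.47 ± 0.55 (SE), limma adjusted p = 0.005), but its lowest nonbrain level was 0.56% of that of heart. With limma diffSplice the calls of Sept4 start 1 (adjusted p = 0.053) and Ldb3 start 2 (adjusted p = 0.051) were lost.

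**Figure D4:**
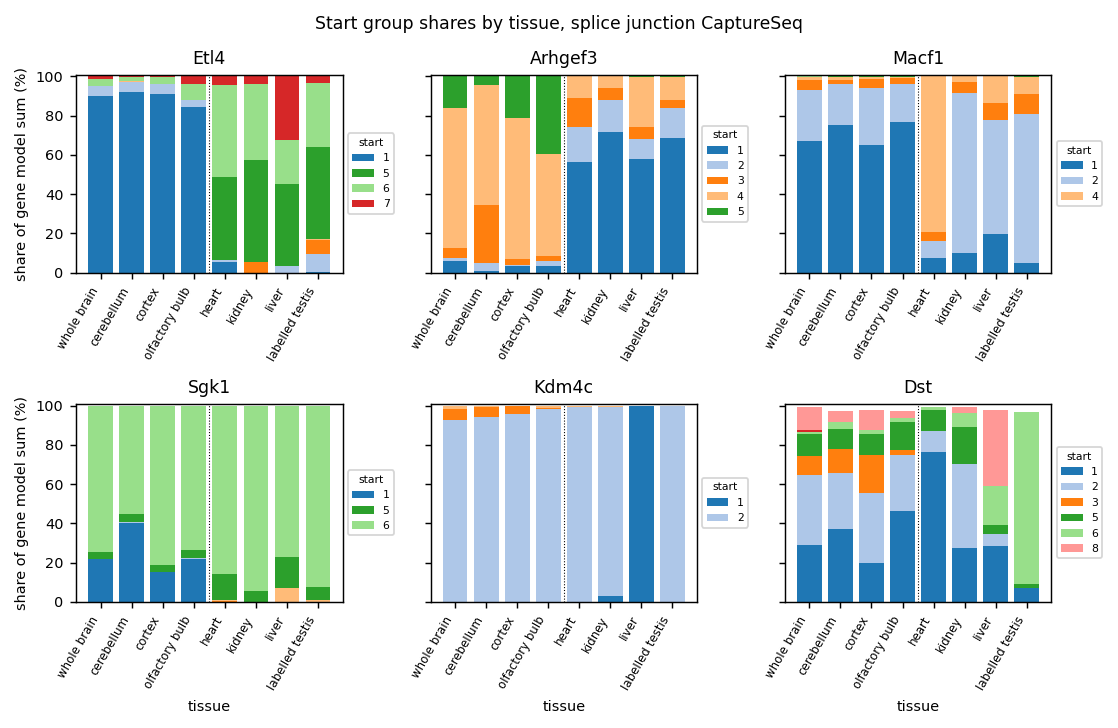
Shares of all start groups (stacked, percent of the gene model sum, y axis) in each of the 8 splice junction libraries (x axis, brain tissues left of the dotted line) for 6 gene models. Colours are start groups numbered from the 5′ end, those of at least 10% in some tissue are in the legend, and what is missing to 100% is single exon transcripts. Etl4, Arhgef3 and Macf1 split brain from nonbrain tissues, and Sgk1 uses its distal start in the 4 brain tissues. Kdm4c changes its leading start in liver, and Dst changes it among several tissues, the tissue labelled testis included.

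Among carriers and transporters, Slc25a25, a mitochondrial carrier of ATP-Mg and phosphate, held 81.6% in heart, 93.8% in kidney, 93.4% in liver and 69.1% in the tissue labelled testis at the downstream start 3 (chromosome 2, position 32424005), and 4.88% in whole brain, 2.97% in cerebellum, 8.34% in cortex and 9.81% in olfactory bulb (log2 odds difference -6.74 ± 0.73 (SE), limma adjusted p = 0.001). Brain tissues divided the gene between start 1, with 27.2 to 57.8%, and start 2, with 33.4 to 69.4%. Each of these starts has a start codon of its own in the first exon. The lowest nonbrain level was 5.64% of the highest, in the tissue labelled testis, and the tissue term over both designs had a limma adjusted p of 0.026 for start 3. Slc39a14, a zinc and iron transporter, held 90.5% ± 5.33 in brain and 33.9% ± 8.21 in nonbrain tissues (SD, n = 4 each) at start 1 (chromosome 14, position 70351425; log2 odds difference 4.44 ± 0.57 (SE), limma adjusted p = 0.002) and 2.97 to 10.3% in brain and 35.8 to 54.7% in nonbrain tissues at start 2, further downstream. Slc39a11, of the same family, held 68.2% in whole brain, 92.2% in cerebellum, 75.6% in cortex and 88.4% in olfactory bulb at start 1 (chromosome 11, position 113650079), and 30.8% in heart, 8.45% in kidney, 10.8% in liver and 3.29% in the tissue labelled testis (log2 odds difference 5.40 ± 0.87 (SE), limma adjusted p = 0.0051). Both starts of Slc39a14 lost their call with limma diffSplice (adjusted p = 0.18 and 0.53). In both genes GENCODE gives starts 1 and 2 the same start codon. Their lowest nonbrain levels were 9.93% and 6.97% of the highest. Clcn7, a chloride and proton exchanger of lysosomes, began at start 1 (chromosome 17, position 25133391) with 91.9% in whole brain, 93.1% in cerebellum, 92.4% in cortex and 86.5% in olfactory bulb, and 34.3% in heart, 31.1% in kidney, 28.9% in liver and 53.9% in the tissue labelled testis (log2 odds difference 4.17 ± 0.41 (SE), limma adjusted p = 0.0007). Start 2, which lies 406 nt from the nearest GENCODE start, took the rest. Cacna1c, the pore subunit of an L-type calcium channel, held 0.0% in brain and 15.3% in heart, 25.3% in kidney, 27.1% in liver and 40.8% in the tissue labelled testis at start 3 (chromosome 6, position 119080007; log2 odds difference -11.96 ± 0.50 (SE), limma adjusted p = 1.8e-05), with a lowest nonbrain level of 0.85% of that of heart.

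H6pd, the hexose phosphate dehydrogenase of the endoplasmic reticulum, began at start 1 (chromosome 4, position 150009023) with 82.9 to 100.0% in brain and 46.1% in heart, 8.50% in kidney, 2.75% in liver and 22.7% in the tissue labelled testis (log2 odds difference 7.11 ± 1.47 (SE), limma adjusted p = 0.014). This call was lost with limma diffSplice (adjusted p = 0.073). Its lowest nonbrain level was 9.07% of the highest. Gcnt1, which branches O-glycans, held 0.0% in brain and 65.1% in heart, 96.0% in kidney, 90.7% in liver and 70.9% in the tissue labelled testis at start 1 (chromosome 19, position 17372899; log2 odds difference -11.48 ± 1.16 (SE), limma adjusted p = 0.00076), with a lowest level of 1.02% of the highest among nonbrain and 4.46% among brain libraries. Galnt10, which starts O-glycosylation, held 0.0 to 9.11% in brain and 59.5% in heart, 55.1% in kidney, 58.4% in liver and 62.2% in the tissue labelled testis at start 3 (chromosome 11, position 57678507; log2 odds difference -6.59 ± 1.18 (SE), limma adjusted p = 0.0076). Its brain start 1 held 48.4% in whole brain, 38.9% in cerebellum, 63.6% in cortex and 29.1% in olfactory bulb, and 0.0% in nonbrain tissues. Neither of these starts of Galnt10 lies at a GENCODE start, and the annotated start 2 held 36.4 to 61.8% in brain and 37.8 to 44.9% in nonbrain tissues. Faim, an inhibitor of cell death by Fas, began at start 1 (chromosome 9, position 98986373) with 100.0% in whole brain, 99.7% in cerebellum, 99.7% in cortex and 99.3% in olfactory bulb, and with 0.0% in heart, 15.6% in kidney, 0.0% in liver and 4.35% in the tissue labelled testis. Start 2, at position 98991831, held 0.0% in brain and 84.4 to 98.7% in nonbrain tissues. This was a near complete change at levels within 10-fold in each pool (log2 odds difference 12.85 ± 1.13 (SE), limma adjusted p = 0.00051), measured from 78 to 1731 fragments. Mtfr1, a regulator of mitochondrial fission, held 85.4% in whole brain, 97.9% in cerebellum, 84.6% in cortex and 87.3% in olfactory bulb at start 2 (chromosome 3, position 19188265), and 3.74 to 11.4% in nonbrain tissues (log2 odds difference 7.29 ± 0.75 (SE), limma adjusted p = 0.00082), and both starts lead to the same start codon. Col1a2, a chain of type I collagen, was divided among the brain tissues, with 28.7% in whole brain, 90.4% in cerebellum, 0.0% in cortex and 4.18% in olfactory bulb at start 1 (chromosome 6, position 4504814), against 97.9 to 100.0% in nonbrain tissues (log2 odds difference -10.40 ± 2.42 (SE), limma adjusted p = 0.021). The brain shares span most of the scale, and the call was lost without olfactory bulb (limma adjusted p = 0.058) or liver (limma adjusted p = 0.053).

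Among transcription regulators, Bcorl1, a corepressor, began at start 3 (chromosome X, position 48343770) with 77.9% in whole brain, 57.1% in cerebellum, 80.0% in cortex and 65.4% in olfactory bulb, and with 0.0% in heart, 0.0% in kidney, 0.16% in liver and 0.10% in the tissue labelled testis (log2 odds difference 9.05 ± 0.39 (SE), limma adjusted p = 1.8e-05). Nonbrain tissues began at start 1, with 52.3 to 66.6%, against 9.75 to 21.3% in brain. Start 3 was thus close to absent in all 4 nonbrain libraries, at levels within 10-fold in each pool and from 131 to 1786 fragments. Grhl1, an epithelial transcription factor, began at start 1 (chromosome 12, position 24572287) with 90.6 to 96.6% in brain and 13.2 to 22.9% in nonbrain tissues (log2 odds difference 5.94 ± 0.39 (SE), limma adjusted p = 0.00014), and its lowest nonbrain level was 2.05% of that of the tissue labelled testis. Mef2d, a MADS box factor of muscle and neurons, began at start 1 with 3.36 to 4.99% in brain and 15.4% in heart, 16.6% in kidney, 28.7% in liver and 57.3% in the tissue labelled testis (log2 odds difference -3.05 ± 0.63 (SE), limma adjusted p = 0.014). The lncRNA libraries gave a log2 odds difference of -0.81 for this start, which was not called (limma adjusted p = 0.68). Mitf, the master regulator of pigment cells, held 24.8% in whole brain, 5.67% in cerebellum, 9.23% in cortex and 72.2% in olfactory bulb at its most downstream start (chromosome 6, position 97991792), and 0.0% in nonbrain tissues (log2 odds difference 8.19 ± 1.40 (SE), limma adjusted p = 0.0065). Olfactory bulb was the highest brain tissue there, and the lowest nonbrain level of Mitf was 4.78% of the highest. Rora, an orphan nuclear receptor, held 0.0% in brain and 20.1% in heart, 0.10% in kidney, 44.6% in liver and 68.0% in the tissue labelled testis at start 3 (chromosome 9, position 69288415; log2 odds difference -9.33 ± 2.17 (SE), limma adjusted p = 0.021). In the lncRNA libraries the same start held 99.2 to 99.8% in brain and 99.7 to 100.0% in nonbrain tissues. The call was lost without cerebellum, cortex or liver and also on the arcsine square root scale (limma adjusted p = 0.052 to 0.057). Rbbp8, which acts in DNA end resection, held 73.6 to 81.9% in brain and 0.0 to 11.3% in nonbrain tissues at start 2, but 88.3 to 97.5% and 82.3 to 95.2% in the lncRNA libraries.

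Starts of single tissues were searched among 2240 start groups of single genes that both designs measured. A start group counted where 1 tissue lay outside the other 7 on the same side in both designs, by a gap of any size in the lncRNA libraries. For liver that gap was 41.1 points at Ikbkg, but 0.00034 points at Kdm4c and 3.4e-17 points at Mcc. The counts below are therefore those of the splice junction libraries and not separate support from the second design. A gap of at least 20 points in the splice junction libraries was found for liver in 21, heart in 14, the tissue labelled testis in 10, kidney in 9, whole brain and olfactory bulb in 2 each, cortex in 1 and cerebellum in 0 start groups. Brain tissues have closer neighbours in this set than nonbrain tissues have. With 1 library per tissue these values have no replicate check. Kdm4c, a histone demethylase, began at start 1 (chromosome 4, position 74242497) with 99.8% in liver, 2.96% in kidney and at most 0.15% in the other tissues, and the 7 other tissues began at start 2 (74251936) with 92.4 to 98.3% in brain. Liver held 1741 fragments of Kdm4c. The lncRNA libraries held 0.0% at start 1 in every tissue, liver included, so they did not show the liver start. Ikbkg, the regulatory subunit of the IκB kinase, began at start 2 (chromosome X, position 74424604) with 96.0% in liver, followed by 32.5% in kidney and 8.30 to 13.6% in brain. In the lncRNA libraries liver was also highest, with 81.2%, then kidney with 40.1%, and the tissue term over both designs passed its test (limma, adjusted p = 0.017). Both designs thus put liver and kidney in the same order at a start whose printed window has no CG. In heart, Smtn, a protein of smooth muscle, began at start 3 (chromosome 11, position 3527937) with 65.6%, against 6.84% at most in the other tissues, but the lncRNA libraries gave 0.55% in heart. Kidney stood apart in Pef1, a calcium binding protein, with 22.9% at start 1 (chromosome 4, position 130102558), against 86.2% or more elsewhere. There the lncRNA libraries gave 53.3% in kidney and 61.5% in liver (tissue term over both designs, limma adjusted p = 0.0041). Tnks1bp1, which binds tankyrase, had 4.22% at start 1 in kidney and 66.8% in liver, the next lowest. In the lncRNA libraries that start of Tnks1bp1 was at 0.0% in heart as well as in kidney, from 14 to 68 fragments, so kidney did not stand apart there. In the tissue labelled testis, start 6 of Dst, dystonin (chromosome 1, position 34160274), held 87.9%, then 20.1% in liver and at most 7.23% in the other tissues, and start 1 of Arhgef10l, a guanine nucleotide exchange factor (chromosome 4, position 140666012), held 73.8%, with 7.19% as the next. Arhgef10l start 1 held 39.0% in the lncRNA library of the same tissue and at most 0.0% in the others. Start 1 of Extl3, an enzyme of heparan sulfate synthesis, held 53.0%, against 3.18% at most elsewhere. This library also carried the keratinocyte markers, and their part in these shares was not tested.

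The gene models with the most start groups of at least 10% in some tissue were Dst (6 of 11), Ggt1, Mcc, Baz2b and Frmd4b. In Mcc 5 different start groups led in some tissue and in Dst 4. In Baz2b, a bromodomain protein, no start group held more than 31.7% in any tissue, whereas the leading start of Dst held 35.4 to 87.9%. Within Dst, heart held 76.2% at start 1, the brain tissues divided it among several starts, and start 3 held 2.47 to 19.5% in brain and 0.0 to 0.44% in nonbrain tissues (log2 odds difference 7.25 ± 1.16 (SE), limma adjusted p = 0.005). The lowest nonbrain levels of Dst and Ggt1 were 6.68% and 1.46% of the highest.

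Because the shares of a gene model divide 1 sum, a rise at 1 start brings a fall at others. In 524 gene models at least 1 start group rose and another fell in brain, both by a call. The start with the largest rise lay upstream of that with the largest fall in 322 of them (61.5%), a median of 16579 nt away from it, and in 251 of 409 (61.4%) with levels within 10-fold in each pool. The most upstream start group made up 45.9% of the start groups called higher in brain, 29.4% of those called lower and 38.7% of all tested. A GENCODE start lay within 100 nt of 81.4% of the start groups called higher and of 66.2% of those called lower, against 75.3% of all tested. Where GENCODE gives a complete start codon at both opposed starts (124 gene models), the start codon was the same in 51 and different in 73. RefSeq promoters within 100 nt were found for 1893 of the tested start groups. A window counted as CpG-rich at a GC content of at least 50% and an observed over expected CpG ratio of at least 0.6. Such windows made up 200 of 282 start groups called higher in brain (70.9%), 97 of 182 called lower (53.3%) and 66.5% of all tested, against 33.5% of 32851 RefSeq promoters. With levels within 10-fold in each pool the shares were 74.7% and 58.3%. TATAAA in the window of 45 to 16 bases before the start was found in 11 of the tested start groups (0.58%) and in 2.14% of all RefSeq promoters. The tested start groups are from gene models with a sum of at least 100 in each tissue, whereas the RefSeq promoters were not filtered by level. The part of this filter in the contrasts with all RefSeq promoters was not tested. These are descriptions, since start groups of a gene are not independent and gene models that join several genes are included.

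**Figure D5:**
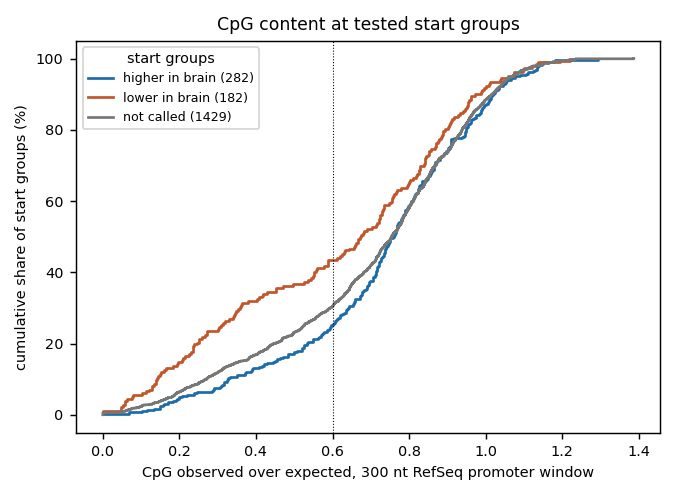
Cumulative share of start groups (y axis, percent) by the observed over expected CpG ratio of their 300 nt RefSeq promoter window (x axis), for 282 start groups called higher in brain, 182 called lower and those not called. The dotted line marks 0.6. The line of the start groups called lower in brain runs above the others up to about this ratio, with a median of 0.67 against 0.76 for those called higher.

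Members of 7 gene lists gave the following counts of gene models with a called start group, beside 32.9% of all tested gene models and a median largest share difference of 9.0 points over all of them. Of textbook genes with alternative promoters 10 of 12 were called (median largest difference 26.9 points; Dmd and Slc4a4 were not), of cytoskeleton and muscle genes 11 of 15 (24.2 points), of synapse and axon genes 3 of 7 (16.8 points), of kinase, cyclic nucleotide and GTPase signalling genes 9 of 20 (13.3 points), of metabolism and nuclear receptor genes 5 of 13 (8.74 points), of transporter and channel genes 6 of 9 (21.2 points) and of transcription factors 4 of 9 (12.9 points). The lists share some genes and were not tested as lists. They were chosen with earlier results of these data known, and a gene model with more start groups has more chances of a call. The counts are therefore descriptions only. Among called list members with smaller changes, Wnk1, a kinase that controls salt transport, held 18.9 to 27.7% in brain and 2.46 to 7.33% in nonbrain tissues at start 5, whose first exon overlaps an inner exon of another start group (log2 odds difference 2.80 ± 0.38 (SE), limma adjusted p = 0.0026), Camk2d, a calmodulin dependent kinase of heart and brain, held 93.5 to 96.6% and 78.8 to 85.6% at start 2 with a lowest nonbrain level of 6.03% of the highest, and Map4, a microtubule binding protein, held 63.4 to 87.9% and 39.1 to 57.5% at start 2. Aldoa, the aldolase of muscle, differed by few points, with 80.8 to 85.9% in brain and 88.9 to 92.2% in nonbrain tissues at start 2 (log2 odds difference -0.93 ± 0.23 (SE), limma adjusted p = 0.024).

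The level of the whole gene model was compared in the same libraries. Of all 17235 gene models whose mean value reached 10, 6465 (37.5%) differed between brain and nonbrain tissues (limma, adjusted p under 0.05), and of the 3634 members 917 (25.2%) did. The members had to reach a sum of 100 in each tissue, which keeps out gene models that are absent from a class. Of the 750 gene models with a called start group, 551 were not called by level and 199 were. Macf1, for example, had a level difference of 0.10 on the log2(value + 1) scale (limma, adjusted p = 0.89), whereas Sept4 was higher in brain by 3.36 (limma, adjusted p = 0.0056).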

How the data were processed

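RNA of 8 tissues of C57BL/6J mice was captured with 2 probe designs and sequenced. Per the methods of the study, the authors used TopHat2 for alignment to GRCm38, Cufflinks 2.2.1 with GENCODE M4 as a guide for assembly, Cuffmerge for the merged annotation and Cuffnorm 2.2.1 for the values. The deposited isoform values are normalized fragment estimates (unit signal), and isoforms that share exons divide fragments by a likelihood estimate, so a share depends on that model. Sums of gene models were whole multiples of the value of 1 fragment in each library (100% within 0.1 of a fragment), which gave fragments per library of 8930244 to 43889325. No counts enter a test.

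Start groups were built from the merged assembly and matched to GENCODE M21 and RefSeq promoters (GRCm38.p6). The log2 odds of (start group value + 1) against (remainder + 1) were fitted with limma 3.58.1 in R 4.3.3, 4 brain against 4 nonbrain tissues, with Benjamini-Hochberg adjustment over all start groups tested. The largest 95% Wilson interval of a start group reached 3.34 points to either side of the share in the median, for counting error only. A tissue term with the design as covariate used all 16 libraries. Levels were compared as log2(value + 1). Scripts were tested on simulated data. Other steps ran in Python 3.11.15 with SciPy 1.17.1, pandas 2.3.3 and NumPy 2.4.6.

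Named start groups were the 15 largest differences in each direction without overlap, the 3 largest gaps per tissue, called members of 7 gene lists and the 5 gene models with the most start groups. A part of these is given with values. Members, rule and lists were chosen with earlier results of these data known. Alternatives were other pseudocounts, filters, scales, joins and tests, the lncRNA libraries and leaving out each tissue. Restriction to levels within 10-fold was chosen after seeing the data.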

Additional observations from a re-analysis of the deposited data

Results flagged for a closer look

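A sample was examined further where, among the 4 tissues of a class, its gap to the nearest tissue exceeded Dixon's 95% critical value for the share of the gap in the range of the class. Of 121 groups of 4 shares with a range of at least 1 point, 17 stood out in this way, 13 nonbrain and 4 brain, and 6 of them in heart. Chance flags about 1 in 20 groups, and starts named for a gap of a single tissue were chosen for standing apart.

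In heart, the library with the fewest fragments, the share was 38.2% at Sept4 start 3, where the other nonbrain tissues were at most 10.2%. It was 65.6% at Smtn start 3, 79.0% at Macf1 start 4, 50.8% at Rapgef4 start 1, 5.26% at Etl4 start 1 and 99.98% at the Yrdc start. In kidney it was 6.34% at Pde1a start 1 and 6.00% at Pde4b start 1, both above the other nonbrain tissues, and in liver 99.8% at Kdm4c start 1. In the tissue labelled testis it was 53.0% at Extl3 start 1, 12.3% at Plec start 3, 99.2% at Rap1gap start 4 and 73.8% at Arhgef10l start 1.

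Among brain tissues, olfactory bulb had 54.7% at the Atp6v1h start and, in Pik3cd, 54.3% at start 3 and 40.9% at start 4, and cortex had 39.2% at the Gmds start. The other brain tissues are listed for Pik3cd start 3 above, and all 3 were within 1 point of each other there. With 1 library per tissue, none of these values has a replicate.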

How the results depend on the processing

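The 1342 start groups called between brain and nonbrain tissues became 926 to 1876 under the other filters, scales, joins and tests, all within 1.5 times. With limma diffSplice, 688 of the 1342 remained called and 47 had the opposite sign. The lncRNA libraries alone called 46, and the cause was not tested. Without each tissue in turn the count was 862 (without cortex) to 1419. These totals include start groups that the reported fit did not call. Of the 1342 themselves, 843 (without cortex) to 1139 (without heart) remained called without each tissue, and 1068 with no filter on the share. The tissue term called 223 at a pseudocount of 10 and 51 (without liver) to 113 without each tissue, among them 56 without kidney, 66 without the tissue labelled testis and 69 without cerebellum. With levels within 10-fold in each pool, chosen after seeing the data, 1031 and 84 were called. Gene model levels gave 4538 to 8022 calls, and quantile normalization moved the log2 level difference of a gene model by a median of -0.28 (median over all gene models 0.13 before and -0.06 after).

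Of 63 called start groups followed by name, 40 had no call lost with the sign kept under any alternative that tested them. These 40 include Tmem214, which reversed in the lncRNA libraries and was not called there. Without each tissue in turn 51 stayed called. The lncRNA libraries could test 7 of the 63, and 0 kept the call. There the log2 odds difference reversed to 0.17 for Atp6v1h, 0.73 for Sept4 start 1 and -1.63 for Tmem214, none of which passed the threshold. In the other 4, at starts of Macf1, Mef2d, Rapgef4 and Rbbp8, the sign was kept and the call was lost (limma adjusted p = 0.14 to 0.68). The calls of Arhgef10l, Atp6v1h, Col1a2, Extl3, Gmds, Nebl, Rapgef4, Rora, Yrdc, Rap1gap and Pde4b start 1 were lost without some tissue, and limma diffSplice ended 10 calls, at starts of Map3k1, Slc39a14, Sept4, Ldb3, Nebl, Pde1a, Rap1gap and H6pd. The arcsine square root scale ended calls of Rora, Extl3 and Arhgef10l, and a pseudocount of 10 those of Extl3 and Arhgef10l. A sum of at least 20, or no filter on the share, ended those of Yrdc and Arhgef10l (limma adjusted p = 0.053 to 0.19 over these settings). No paired analysis was possible because replicate numbers only name tissues in accession order. Depth limits the shares in heart most, and shares rest on estimates that divide fragments between isoforms.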
